A study of Solanum lycopersicum with 8 samples.

Results

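The genes described here are 10 chlorophyll a/b-binding genes of tomato that lie outside the tandem Cab arrays on chromosomes 2, 3 and 8. They were taken by gene ID, and all 10 were found among the 34725 genes in the count files. RNA was sequenced from isolated gland cells of type VI trichomes (4 libraries) and from leaves shaved of their trichomes (4 libraries), in 4 collections. Type VI trichomes are leaf hairs with a head of secretory cells on a short stalk. All plants were of cultivar M82, 5 weeks old, and grown at 28 °C and 250 µE of light. The trichome libraries are labelled as complemented line #4 and the leaf libraries as the af mutant. The protocol, however, takes both tissues from the same plants, and the labels do not settle which is right. If the genotype labels hold, tissue and genotype cannot be told apart in any comparison below.

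Chlorophyll a/b-binding proteins are encoded in the nucleus and imported into chloroplasts, where they hold chlorophylls and carotenoids in the thylakoid membrane. They pass absorbed light energy to the reaction centres of photosystem I and photosystem II. The major antenna of photosystem II is built of trimers, and minor antenna proteins sit between these trimers and the core, while photosystem I has its own belt of antenna proteins. Gland cells of type VI trichomes are known to contain chloroplasts.

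The files hold gene IDs without names. For 8 of the 10 genes the reference table (RefSeq assembly SLM_r2.1) has a Cab symbol on the same chromosome at the same relative place in the gene order. The places differed by at most 2.41 percentage points, and up to 5 were allowed. These genes are CAB4 (Solyc07g047850, type II protein of the major photosystem II antenna), CAB9 (Solyc06g063370, a minor photosystem II antenna protein), CAB6A (Solyc05g056050, photosystem I antenna, type I), CAB7 (Solyc10g006230, photosystem I, type II), CAB8 (Solyc10g007690, photosystem I, type III), CAB11 (Solyc03g115900, photosystem I, type IV) and CAB12 (Solyc06g069000, also type IV). The eighth, Solyc01g105030, falls on the neighbouring pair CAB-10A and CAB-10B, which encode the minor photosystem II antenna protein CP24. Which of that pair it is was not settled, and it is written CAB-10A/10B. Solyc07g063600 and Solyc09g014520 have no symbol at their place and are called by their IDs.

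Gene totals ran from 24596280 to 26514416 counts in trichome libraries and from 19209754 to 34941715 counts in leaf libraries. Levels are given as read counts scaled to library size (CPM) after TMM scaling, and they are not divided by gene length, so levels are compared between tissues and not between genes. The share kept is the mean level in trichome divided by the mean level in leaf, in percent. In bulk RNA, fewer cells that express a gene and less RNA per cell cannot be told apart.

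All 10 antenna genes were lower in trichome than in leaf at an adjusted p under 0.05 (edgeR's quasi-likelihood test, Benjamini-Hochberg over 20409 tested genes). Over all tested genes, 38.5% were called lower in trichome. Among the 105 tested genes at 1000 CPM or more in leaf, a range that holds 9 of the 10 antenna genes, 88.6% were called lower. The direction alone therefore did not set these genes apart from other abundant leaf genes. For each of the 10, every trichome library lay below every leaf library, as it did for 36.8% of all tested genes. The antenna genes differed in how much of the leaf level was kept: from 0.122% for Solyc07g063600 to 15.5% for CAB-10A/10B, with a median of 5.89%. The median over all tested genes was 93.7%, and over the genes at 1000 CPM or more in leaf it was 9.96%. Within single collections the median over the 10 genes lay between 4.89% and 7.60%. Together the 10 genes took 0.241% ± 0.0192 of all gene counts in trichome and 3.98% ± 0.432 in leaf (SD, n = 4 each).

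**Figure D1:**
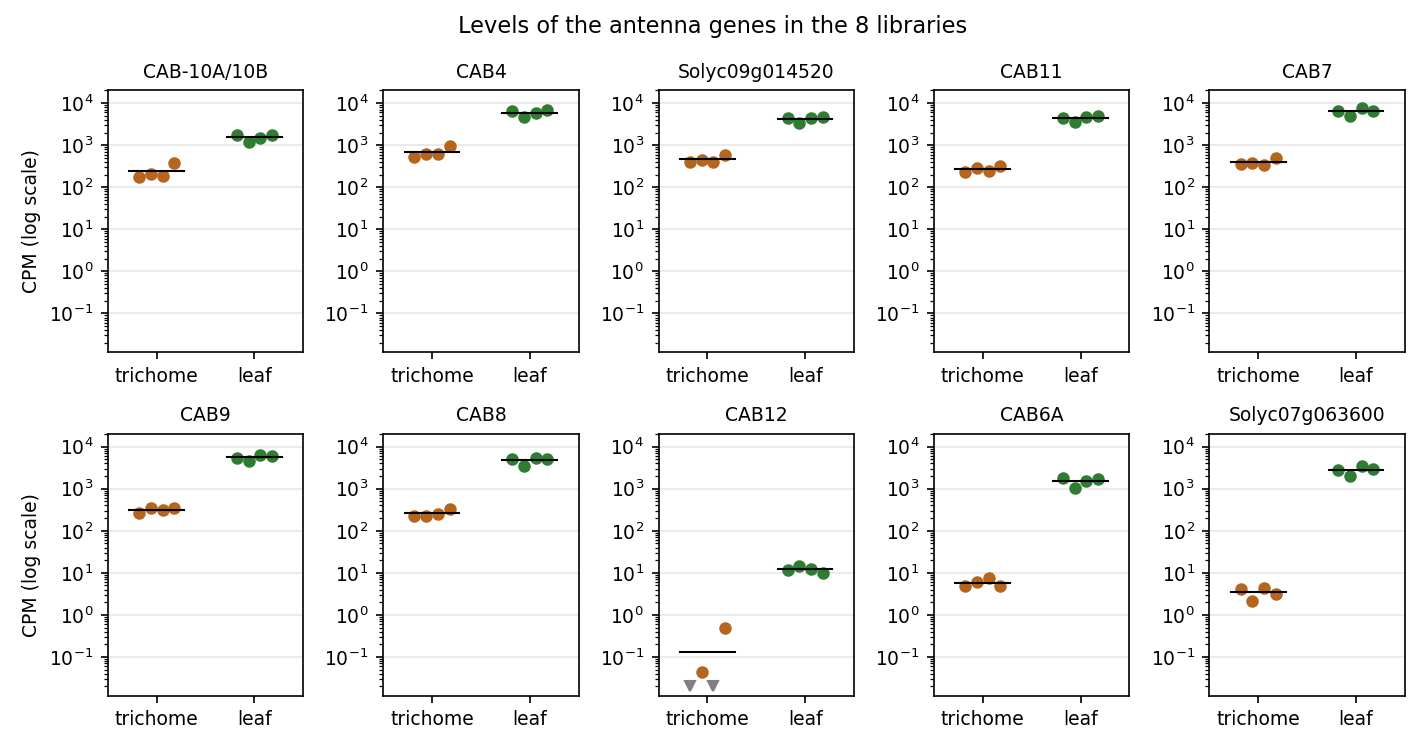
Level of each antenna gene in the 4 trichome (brown) and 4 leaf (green) libraries in CPM on a log axis, with a black line at the mean and a grey triangle for a library with no count. The groups do not overlap for any gene, and Solyc07g063600, CAB6A and CAB12 sit lowest in trichome, with means of 3.43, 5.87 and 0.134 CPM.

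The photosystem II antenna genes with a symbol kept unequal shares. CAB-10A/10B had 174.0, 212.0, 186.3 and 386.3 CPM in trichome, against 1793, 1193, 1477 and 1737 CPM in leaf. Trichome replicate 4 was the highest of its group, and the groups did not overlap. It fell by 2.69 on the log2 scale (SE 0.31, edgeR adjusted p = 5.50e-05), and the share kept in single collections lay between 9.70% and 22.2%. CAB4 had 530.6, 628.4, 612.7 and 934.7 CPM in trichome, against 6386, 4691, 5699 and 6755 CPM in leaf. Again trichome replicate 4 was highest in its group and leaf replicate 2 lowest in its own. CAB4 kept 11.5% of its leaf level (log2 change -3.12, SE 0.30, edgeR adjusted p = 1.58e-05). CAB9 had 259.7, 344.9, 317.0 and 355.0 CPM in trichome, against 5412, 4484, 6429 and 6061 CPM in leaf. Its trichome libraries were closer together than those of the other photosystem II genes, and it kept a smaller share, 5.70% (log2 fold change -4.13, SE 0.27, edgeR adjusted p = 1.93e-06).

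Of the photosystem I antenna, the type II, III and IV proteins CAB7, CAB8 and CAB11 kept similar shares, 6.09%, 5.54% and 6.25%. CAB7 had 356.4, 372.4, 334.2 and 502.6 CPM in trichome, against 6609, 4964, 7525 and 6622 CPM in leaf. Trichome replicate 4 was again highest in its group. The 3 log2 fold changes lay between -4.17 and -4.00, with SEs of 0.26 to 0.30. CAB6A, the type I protein, had 4.98, 6.003, 7.52 and 4.98 CPM in trichome, against 1770, 1026, 1527 and 1748 CPM in leaf. The trichome libraries held 101 to 204 counts each, and no collection kept more than 0.585% of the leaf level. CAB6A kept 0.387% of its leaf level (log2 fold change -8.01, SE 0.33, edgeR adjusted p = 2.99e-07).

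CAB12, the second type IV gene, was low in both tissues. It had 0, 1, 0 and 10 counts in trichome, against 235, 420, 403 and 321 counts in leaf, or a mean of 0.134 ± 0.240 CPM against 12.1 ± 2.00 CPM (SD, n = 4 each). A single library, trichome replicate 4, held 10 of its 11 trichome counts. The share kept was 1.11% with all libraries and 0.121% without trichome replicate 4. Taken instead as pooled counts per library size, it was 0.820% with all libraries. On that measure the single count left without trichome replicate 4 gave 0.0997% (exact Poisson 95% interval 0.00253% to 0.556%, counting error only). The log2 change of -6.62 (edgeR adjusted p = 8.47e-05, SE 0.83) was -9.42 without that library. Its type IV partner CAB11 averaged 275.7 ± 42.6 CPM in trichome and 4408 ± 649.7 CPM in leaf (SD, n = 4 each).

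The pair of genes without a symbol kept very different shares. Solyc09g014520, on chromosome 9, had 397.4, 457.0, 402.7 and 591.1 CPM in trichome, against 4381, 3332, 4454 and 4699 CPM in leaf. It kept 10.96%, close to CAB4 (log2 fold change -3.19, SE 0.26, edgeR adjusted p = 6.62e-06). Solyc07g063600, on chromosome 7, had 4.23, 2.10, 4.27 and 3.11 CPM in trichome, against 2771, 2033, 3534 and 2889 CPM in leaf. All 4 collections kept between 0.103% and 0.153%, and its highest trichome level was 2.03 times its lowest. Its log2 fold change was -9.67 (SE 0.41, edgeR adjusted p = 3.37e-07). With all libraries and TMM scaling, Solyc07g063600 and CAB6A are the 2 antenna genes that kept under 1%. Of all tested genes 6.25% did so, and of those at 1000 CPM or more in leaf 23.8%. CAB12, at 1.11%, lay just above that line. It kept 0.121% without trichome replicate 4 and 0.791% with library size alone.

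**Figure D2:**
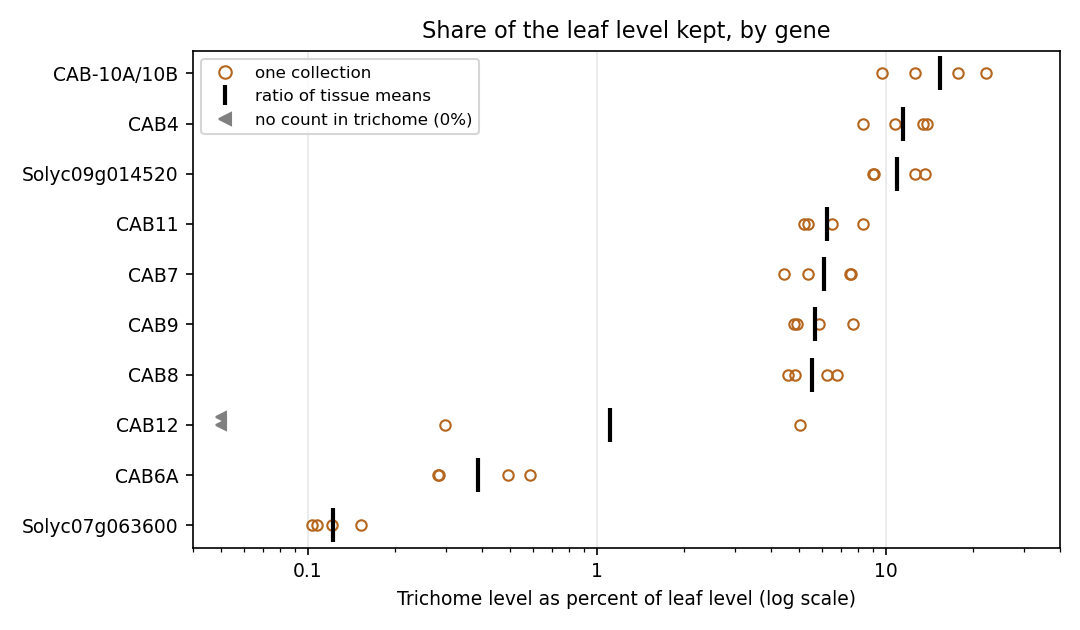
Trichome level as a percent of the leaf level (log axis) for each antenna gene, with an open circle per collection, a black bar for the ratio of the tissue means and a grey triangle where a collection had no trichome count. CAB-10A/10B, CAB4 and Solyc09g014520 lie between 10.96% and 15.5%, and CAB11, CAB7, CAB9 and CAB8 between 5.54% and 6.25%. CAB6A and Solyc07g063600 lie under 1%. CAB12 has its bar at 1.11%, and it kept 0.121% without trichome replicate 4.

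Whether the genes kept different shares was tested on ratios of counts within each library, which do not depend on scaling between libraries. For all 45 pairs of the 10 genes, the log2 ratio was compared between trichome and leaf with an exact two-sided permutation test over the 70 ways to divide the libraries 4 and 4, where the smallest p is 0.0286. These pair tests were added after the values were seen. After Benjamini-Hochberg adjustment over the 45 pairs, 36 differed. With labels exchanged only within the paired collections, where p cannot go below 0.125, 0 of 45 passed. In order of the share kept, CAB-10A/10B stood above CAB4 (difference of log2 ratios 0.39, SE 0.10, exact adjusted p = 0.0357, 4 of 4 collections). CAB4 and Solyc09g014520 were not told apart (0.06, SE 0.07, exact adjusted p = 0.520, same direction in only 2 of 4 collections). Solyc09g014520 stood above CAB11 by 0.80 (SE 0.05, exact adjusted p = 0.0357, 4 of 4 collections). None of the 6 pairs among CAB11, CAB7, CAB9 and CAB8 was called, and their largest difference was 0.18 (SE 0.12, exact adjusted p = 0.257, CAB11 over CAB8). CAB6A stood above Solyc07g063600 by 1.70 (SE 0.29, exact adjusted p = 0.0357, 4 of 4 collections). CAB12 stood below CAB8 but was not told apart from CAB6A or Solyc07g063600 at its low counts.

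The make-up of the antenna transcripts differed in the same way. CAB4 took 25.5% ± 1.30 of the 10 genes' summed counts in trichome and 15.9% ± 1.22 in leaf (SD, n = 4 each, exact permutation adjusted p = 0.0317 over 10 genes). Solyc09g014520 took 17.6% ± 0.570 in trichome and 11.4% ± 0.282 in leaf, and CAB-10A/10B took 8.85% ± 1.60 in trichome and 4.18% ± 0.410 in leaf. These were the 3 genes whose part of the sum was larger in trichome, in 4 of 4 collections each. CAB7, CAB8, CAB9, CAB6A, CAB12 and Solyc07g063600 took a smaller part. CAB7, for example, took 14.9% ± 0.924 in trichome and 17.3% ± 0.933 in leaf, and Solyc07g063600 0.137% ± 0.0581 in trichome and 7.52% ± 0.803 in leaf. In all, 9 of 10 shares differed (exact adjusted p = 0.0317 each), and that of CAB11 did not (10.6% ± 0.844 in trichome, 11.9% ± 0.517 in leaf, exact adjusted p = 0.0571). The calls of CAB7, CAB9 and CAB12 were lost without any single leaf library, that of CAB7 also without trichome replicate 3 and that of CAB9 also without trichome replicate 4 (exact adjusted p 0.0635 to 0.0857), while that of CAB11 was gained without trichome replicate 2 (exact adjusted p = 0.0286). With labels exchanged only within the 4 paired collections, p could not go below 0.125, and 0 of 10 passed.

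**Figure D3:**
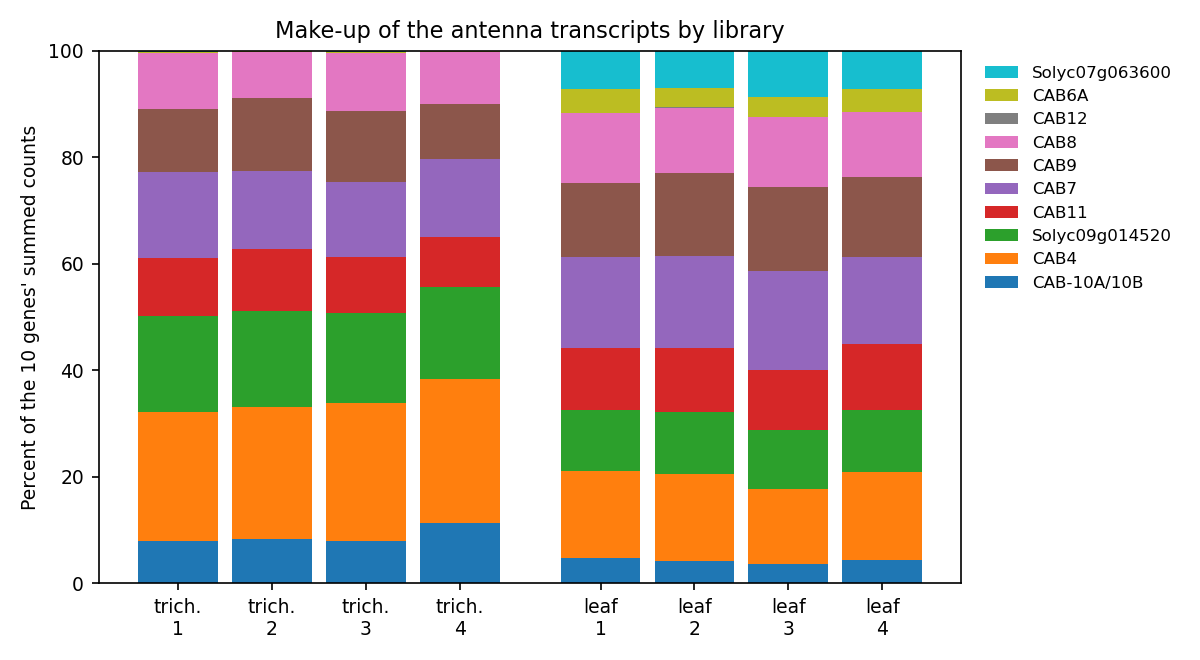
Percent of the 10 genes' summed counts taken by each gene, as stacked bars for the 4 trichome libraries (left) and the 4 leaf libraries (right). The segments of CAB4, Solyc09g014520 and CAB-10A/10B are larger in every trichome library, and those of Solyc07g063600 and CAB6A, together visible at the top of the leaf bars, nearly vanish in trichome.

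Split by photosystem, the 5 photosystem I genes summed to 0.858, 0.751, 0.756 and 0.699 times the counts of the 3 photosystem II genes in trichome, against 1.32, 1.25, 1.39 and 1.26 times in leaf. Every trichome library lay below every leaf library. The difference of log2 ratios was -0.77 (exact two-sided permutation p = 0.0286, the smallest that 70 divisions give; p = 0.125 within collections, the smallest that 16 arrangements give). The division was not clean by gene, since CAB9 of photosystem II kept a share like those of CAB7, CAB8 and CAB11. The 2 genes without a symbol were left out of this ratio.

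A pair of genes outside the arrays that are not among the 10 is given beside them as a description, with no test, since the pair was chosen after its values were seen. CAB5 (Solyc12g006140), a second type II gene of the major photosystem II antenna on chromosome 12, had 2.07 ± 0.654 CPM in trichome and 1592 ± 681.1 CPM in leaf (SD, n = 4 each). It kept 0.130%, against 11.5% for CAB4, and the log2 ratio of CAB4 to CAB5 was higher in trichome by 6.35 (SE 0.36), in 4 of 4 collections. Solyc01g105050, a near neighbour of CAB-10A/10B in the gene order, has no settled name and kept 7.86%. The log2 ratio of CAB-10A/10B to it was higher in trichome by 0.96 (SE 0.16), in 4 of 4 collections. How reads were divided between CAB4 and CAB5, or between CAB-10A/10B and Solyc01g105050, was not tested.

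Set against the tandem arrays, the antenna genes outside them made up a larger part of the antenna counts in trichome. Their summed counts were 3.89, 4.61, 3.88 and 3.52 times those of the 15 array genes in trichome, against 1.60, 1.54, 1.20 and 1.32 times in leaf. The groups did not overlap (difference of log2 ratios 1.49, exact two-sided permutation p = 0.0286; p = 0.125 within collections). Of the 15 array genes 13 had enough counts to be tested, and the other 2 had no count in any library. All 13 fell, with a median share kept of 0.182%. In the arrays 11 of 13 tested genes kept under 1%, from 0.0577% for Solyc02g071000, while Solyc02g070940 kept 8.07% and Solyc03g005760 6.43%. Over the trichome libraries Solyc02g070940 held 36729 counts and Solyc03g005760 21555, and no other array gene held more than 1936. Because the copies in an array are nearly identical, how reads were divided among them is uncertain. Reads without a unique place were set aside as such and took 4.64% to 6.70% of the counted lines in trichome and 2.87% to 4.44% in leaf.

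**Figure D4:**
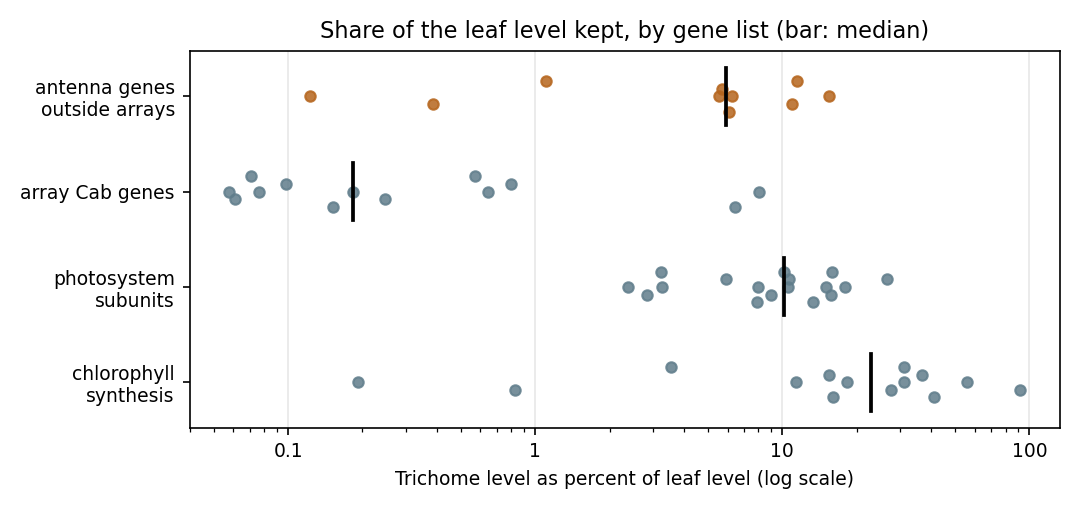
Trichome level as a percent of the leaf level (log axis) for the tested genes of each list, 1 point per gene, with a black bar at the median. The antenna genes outside the arrays (median 5.89%) have 2 of 10 points under 1%, while 11 of 13 array genes lie there. CAB12 lies just above, at 1.11%, and it kept 0.121% without trichome replicate 4. Of all tested genes 6.25% kept under 1%, and of those at 1000 CPM or more in leaf 23.8%.

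The antenna genes were also read beside genes they work with. Of 17 listed photosystem subunit genes all fell, with a median of 10.2% kept. Among those with a symbol, PSBP, of the oxygen-evolving complex, kept 26.4%, the highest. PSBS, which acts in the dissipation of excess light energy, kept 2.38%, the lowest. Of 14 listed chlorophyll synthesis genes 13 fell, with a median of 22.8%. GSA-AT, an early enzyme of the pathway, had 170.4 ± 18.4 CPM in trichome and 185.7 ± 39.0 CPM in leaf (SD, n = 4 each, edgeR adjusted p = 0.562) and was the gene not called. Among those with a symbol POR, which reduces protochlorophyllide, kept the least, 0.828%. Another such gene, POR2, kept 31.1%.

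Taken as a percent of the summed counts of the photosystem subunit genes in the same library, CAB4 stood at 17.4% ± 2.06 in trichome and 17.3% ± 1.33 in leaf (SD, n = 4 each; difference of log2 ratios 0.00, SE 0.10, exact adjusted p = 1 over 10 genes). Solyc09g014520 stood at 12.0% ± 0.628 in trichome and 12.4% ± 0.597 in leaf (-0.05, SE 0.05, exact adjusted p = 0.540). CAB-10A/10B stood at 6.06% ± 1.37 in trichome and 4.56% ± 0.435 in leaf (0.39, SE 0.17, exact adjusted p = 0.0714). None of these 3 passed the test. The other 7 were lower relative to the subunits in trichome (exact adjusted p = 0.0408 each), in 4 of 4 collections. CAB7, CAB8, CAB9 and CAB11 were lower by 0.86 to 1.03 on the log2 scale, and CAB6A by 4.86. With labels exchanged only within the paired collections, p cannot go below 0.125, so none of these calls could pass there. CAB12 rests on 11 trichome counts, 10 of them in trichome replicate 4. This comparison was added after the values were seen.

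**Figure D5:**
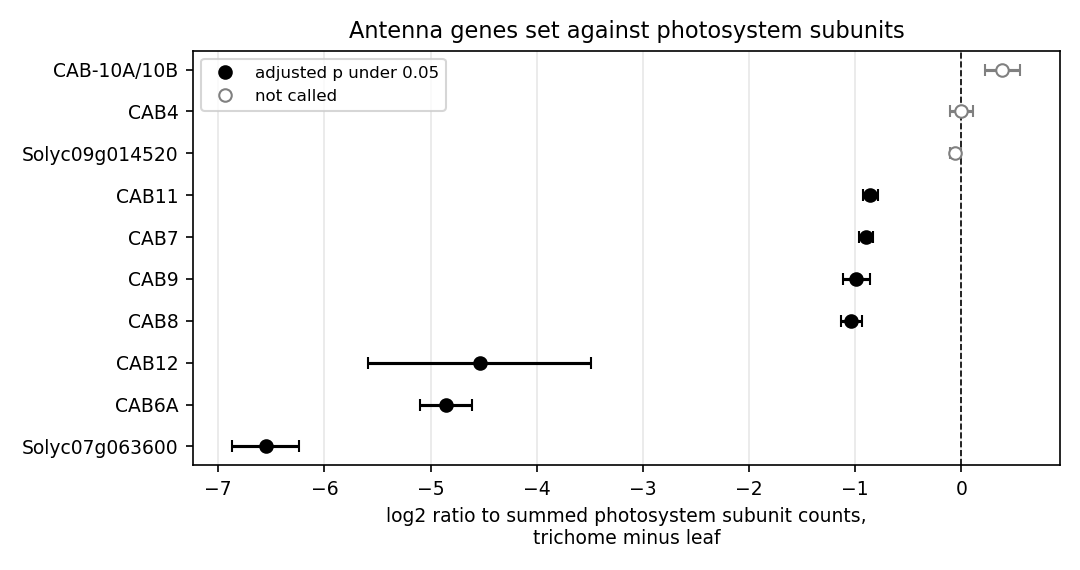
Difference between trichome and leaf in the log2 ratio of each antenna gene's counts to the summed counts of 17 photosystem subunit genes, with the standard error as a bar; filled points passed the exact permutation test at an adjusted p under 0.05. CAB4 and Solyc09g014520 lie near 0 and CAB-10A/10B at 0.39 (SE 0.17), and none of them was called. CAB11, CAB7, CAB9 and CAB8 lie near -1, and CAB12, CAB6A and Solyc07g063600 below -4.

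Trichome replicate 4 was the highest trichome library for 8 of 10 antenna genes, as it was for 32.9% of all tested genes and 64.8% of those at 1000 CPM or more in leaf. With library size alone, without the TMM factors, it was highest for 5 of 10. Leaf replicate 2 was the lowest leaf library for 9 of 10, with TMM scaling and with library size alone, as it was for 26.3% of all tested genes and 68.6% of those at 1000 CPM or more in leaf. TMM factors were lowest in trichome replicate 4 (0.773) and highest in leaf replicate 2 (1.24). CAB-10A/10B varied most among trichome libraries after CAB12, with a highest level 2.22 times its lowest. For the other genes but Solyc07g063600 (2.03 times) and CAB12, that ratio was at most 1.76. Outside the antenna and array genes, the nearest profile over the 8 libraries among 1465 genes at 100 CPM or more in leaf was that of Solyc06g060310, from the chlorophyll synthesis list. Its Euclidean distance to the mean profile of the 10 genes was 0.461 in log2 units, with 7.62 ± 1.72 CPM in trichome and 215 ± 54.2 CPM in leaf (SD, n = 4 each). Next came Solyc02g069450, from the photosystem subunit list (0.534), and Solyc01g006330 (0.595), which is on no list here.

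Markers of other cells were read in the same libraries. The 4 leaf markers summed to 631.5 to 835.0 CPM in trichome and 12216 to 18298 CPM in leaf, and all 4 fell. In trichome RBCS-2A, a Rubisco small subunit, kept 6.72%, SUT1, a phloem sucrose transporter, 0.943%, PSY2, a leaf phytoene synthase, 0.328%, and Solyc07g056540 0.114%. The shares of the last 3 lay below those of CAB4, CAB7, CAB8, CAB9, CAB11, CAB-10A/10B and Solyc09g014520. That of RBCS-2A lay below CAB4, CAB-10A/10B and Solyc09g014520 and above CAB7, CAB8, CAB9 and CAB11. Solyc07g063600 (0.122%) and CAB6A (0.387%) lay between Solyc07g056540 and SUT1, and CAB12 (1.11% with all libraries) between SUT1 and RBCS-2A. Without trichome replicate 4, CAB12 kept 0.121%. No marker of the 4 was at 0 in a trichome library. The 3 gland markers (PHS1, NDPS1 and TPS12, of terpene synthesis) summed to 8754 to 15378 CPM in trichome and 14.4 to 89.8 CPM in leaf. Their sum was highest in trichome replicate 4 among the trichome libraries and in leaf replicate 2 among the leaf libraries. These are the libraries with the extreme TMM factors given above. PHS1 by itself was highest in trichome replicate 2 (2449 CPM, against 2091 CPM in trichome replicate 4). The 5 acylsugar genes, markers of the tip cells of other glandular hairs, summed to 99.2 to 147.3 CPM in trichome and 0.641 to 12.5 CPM in leaf, and all 5 rose. The 3 cuticle genes, markers of other epidermal cells, summed to 371.6 to 620.4 CPM in trichome and 369.7 to 587.7 CPM in leaf, with 1 risen and 2 fallen. The part of these cells in the antenna levels was not tested.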

How the data were processed

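The deposited files hold raw counts of reads per gene, 1 file per library, with no normalization by the authors. Per the submitters' processing notes, Trimmomatic, TopHat2, SAMtools and HTSeq were used. The sources used here give no versions, genome build, annotation or strand setting, so overlapping and antisense genes cannot be told apart. Per the labels, total RNA came from an RNeasy kit and went into TruSeq RNA libraries. HTSeq's 5 summary lines, 18.4% to 24.4% of lines in trichome and 12.7% to 14.5% in leaf, were left out.

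Counts were tested over all genes with edgeR 4.0.16 under R 4.3.3 (TMM, quasi-likelihood, filterByExpr, no block, Benjamini-Hochberg). Standard errors are approximate, the log2 change divided by the root of the F statistic. The fit was tested on simulated data. CPM values use whole gene totals and the TMM factors. Ratios within libraries were tested with exact permutation tests over libraries, with 0.5 counts added for single genes, and their standard errors combine the spread of the 4 libraries of each tissue. Names were matched by chromosome and relative gene order, since 0 of 34725 IDs were in the reference table. A count of 3 stood for 0.113 to 0.122 CPM in trichome and 0.0859 to 0.156 CPM in leaf.

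The protocol and the shared collection numbers pair the libraries. Between the tissues, departures from the tissue means, in libraries sharing a number, correlated at 0.0990, 0.136, 0.188 and 0.166 over genes. Differently numbered libraries gave -0.197 to 0.135, and trichome replicate 1 correlated more with leaf replicate 2 (0.135) than with leaf replicate 1. The labels call the 4 collections independent; p-values measure the spread between them. The named genes were all 10 antenna genes, the array genes with the highest and lowest share kept, the same extremes of the photosystem subunit and chlorophyll synthesis lists among genes with a reference symbol, and the 3 nearest profiles. Solyc03g005760, POR2, CAB5, Solyc01g105050 and the markers were named outside this rule, after their values were seen. The members and lists were chosen with earlier results of these data known, and list IDs are published assignments recalled without a source in the files. Alternatives were upper-quartile or RLE scaling, library size alone, 2 other filters (none, and 5 CPM in 4 libraries), the replicate block, DESeq2 1.42.0, limma-voom (limma 3.58.1), the median over collections, each array alone, and leaving out each library.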

Additional observations from a re-analysis of the deposited data

Results flagged for a closer look

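In 24 groups of 4 values, Dixon's test singled out 2 libraries, and chance flags about 1 group in 20. CAB12 had 0.493 CPM in trichome replicate 4, far above the other trichome libraries, which held at most 0.0438 CPM. CAB8 had 3505 CPM in leaf replicate 2, far below the other leaf libraries, which lay between 4972 and 5274 CPM.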

How the results depend on the processing

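All 10 antenna genes were called lower in each of the 16 other fits, the replicate block included, and the largest adjusted p was 6.02e-04 (CAB12). The block changed no call on the gene lists. With tissue labels exchanged within collections, the replicate block gave 0 shares called in place of 9. The differences of 1.49 (antenna genes over arrays) and -0.77 (the 5 photosystem I over the 3 photosystem II genes) then had an exact permutation p = 0.125. That is the smallest p that 16 arrangements give. Without single libraries, the number of shares called ran from 6 to 10, the array difference from 1.42 to 1.55 and the photosystem difference from -0.83 to -0.73. Set against single arrays, the difference was 1.67 (chromosome 2), 1.13 (chromosome 3) and 5.41 (chromosome 8). The median share kept was 5.04% with library size alone, which shifted the median of all genes by -0.22 on the log2 scale, and ran from 5.47% to 6.15% without single libraries. Counts without molecular identifiers do not count independent molecules, and low counts in trichome limit CAB12 (11) and the chromosome 8 pair (15 and 25).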
